A study of Mus musculus with 10 samples.

Results

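HOX genes, the homeobox transcription factor genes that mark position along the body axis, were followed in bulk RNA from mouse tumours of BBN963 cells, a urothelial (bladder) carcinoma line. The deposited table of 23086 gene symbols holds 32 HOX genes, taken by symbol alone with no filter on level, of which 11 belong to the Hoxa cluster, 9 to Hoxb, 7 to Hoxc and 5 to Hoxd. 5 ATM-WT tumours were set against 5 ATM-KO tumours, both grown from the same line in mice until a size of 500 mm3, and the labels name no treatment, age or strain. The ATM protein is a kinase that responds to broken DNA. The labels do not say how ATM was disrupted, how many knockout clones were used, where the cells were implanted or whether tumours were pooled, so the p-values here reflect spread among libraries that may be partly technical. Levels are the authors' normalized counts, given as mean ± SD over the 5 libraries of a group. Changes are ATM-KO minus ATM-WT differences of log2(normalized count + 1) ± SE from limma fitted to all 16517 genes with a mean of at least 10. That scale understates the change of low genes. A gene is called higher or lower where its Benjamini-Hochberg adjusted p over all tested genes is under 0.05.

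HOX genes sit in 4 clusters on different chromosomes, and their order along a cluster follows the order of the body regions in which they are switched on in the embryo. Low numbers act towards the head and high numbers towards the tail, and genes of the same number in different clusters (paralogues) encode closely related proteins. Adult cells keep much of the pattern of the region they came from, which is well known for fibroblasts and other stromal cells, and the bladder and urethra arise in the posterior body, where high numbers such as Hoxa13 are active. Anterior genes are here numbers 1 to 5, middle genes 6 to 9 and posterior genes 10 to 13.

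Promoters of 17 of the 32 HOX genes are held by RefSeq's table (build GRCm38.p6), as 18 windows from 250 bases before to 50 after a start site. Of these, 4 are shown because their genes carry the changes described next. Hoxa2 and Hoxa5 fell in ATM-KO, Hoxd3 was listed at 0 there, and Hoxd10 rose. Capitals mark CCAAT, a common promoter element, on either strand (ATTGG is its reverse complement).
Hoxa2, chr6:52164782-52165081, minus strand: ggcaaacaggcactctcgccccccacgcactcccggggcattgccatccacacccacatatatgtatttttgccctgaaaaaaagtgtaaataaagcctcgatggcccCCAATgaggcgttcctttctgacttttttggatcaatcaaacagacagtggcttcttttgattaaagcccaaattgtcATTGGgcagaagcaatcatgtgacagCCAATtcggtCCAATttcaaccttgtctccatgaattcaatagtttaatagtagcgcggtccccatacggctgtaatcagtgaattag
Hoxa5, chr6:52204538-52204837, minus strand: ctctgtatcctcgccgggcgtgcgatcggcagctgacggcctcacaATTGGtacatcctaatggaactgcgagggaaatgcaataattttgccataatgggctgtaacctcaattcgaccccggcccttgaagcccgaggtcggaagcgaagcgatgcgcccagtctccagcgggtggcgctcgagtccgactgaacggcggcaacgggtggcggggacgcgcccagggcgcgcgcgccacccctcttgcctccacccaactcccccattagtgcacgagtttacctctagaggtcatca
Hoxd3, chr2:74711743-74712042, plus strand: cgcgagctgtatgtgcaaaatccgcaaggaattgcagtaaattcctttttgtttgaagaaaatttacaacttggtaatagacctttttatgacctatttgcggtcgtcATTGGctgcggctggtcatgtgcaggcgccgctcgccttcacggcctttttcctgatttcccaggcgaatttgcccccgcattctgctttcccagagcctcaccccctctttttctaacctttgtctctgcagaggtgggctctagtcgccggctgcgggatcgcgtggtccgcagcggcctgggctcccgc
Hoxd10, chr2:74691641-74691940, plus strand: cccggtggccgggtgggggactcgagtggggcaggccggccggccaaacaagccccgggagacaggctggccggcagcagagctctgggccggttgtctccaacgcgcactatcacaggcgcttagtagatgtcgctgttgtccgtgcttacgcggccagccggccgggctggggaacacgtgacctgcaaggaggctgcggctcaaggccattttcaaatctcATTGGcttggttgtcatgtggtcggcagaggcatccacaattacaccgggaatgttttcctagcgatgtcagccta

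The Hoxa2 window held 4 CCAAT matches and each of the other windows shown held 1. Windows of Hoxa3, Hoxa7, Hoxa9 and Hoxa11, also lower in ATM-KO, held no match. Among genes not called, windows of Hoxb8, Hoxd8 and Hoxa13 each held 1, and those of Hoxb4 and Hoxd9 held none. The element was thus present in some windows and absent from others among both called and uncalled genes. Of the 18 HOX windows 61.1% held CCAAT, against 37.4% of all 32851 promoter windows of the table. TATAAA was found in 16.7% of HOX windows and 13.6% of all windows. TGATNNAT, a form of the joint HOX and PBX site, was found in 11.1% and 8.85%, and TTTATNG, a form preferred by posterior HOX proteins, in 11.1% and 10.9%. All motifs were searched on both strands, and matches are letters in a window, not sites shown to be bound. The median GC content was 56.5% in HOX windows and 52.7% in all windows, and the median number of CpG dinucleotides was 14.5 and 7.

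The libraries had like totals of normalized counts. From the spacing of low values, in units of 1e+06 reads, depth was about 8.82 in ATM-WT library A2 and 20.6 to 28.3 in the others, and A2 and ATM-WT library A4 listed the most genes at 0 (4824 and 4266, against 2225 to 3602). The tumours' labelled tissue was checked against 9 epithelial and urothelial markers. Their summed level was 43991 to 109141 in ATM-WT and 1592 to 2714 in ATM-KO, and all 5 ATM-KO libraries listed the uroplakin gene Upk3a at 0. All 8 epithelial markers tested were lower in ATM-KO, with a median log2 change of -6.52. Krt18 fell least, from 4524 ± 1693 to 1710 ± 402, and made up most of the ATM-KO sum. Krt8 fell from 10857 ± 4561 to 15.2 ± 10.8 and Krt19 from 10238 ± 4181 to 10.2 ± 3.17. Fibroblast markers (9 genes, 8 lower) summed to 159579 to 578304 in ATM-WT and 37166 to 108795 in ATM-KO, also without overlap. Skin markers (4 genes, 3 lower) summed to 989 to 13759 and 54.1 to 154, again without overlap. Sums of endothelial markers (1719 to 3701 in ATM-WT, 1521 to 3462 in ATM-KO) and macrophage markers (16027 to 45245 and 23998 to 37718) overlapped. In bulk tumours fewer cells of a type and less RNA per cell cannot be told apart, and the part of these marker differences in the HOX results was not tested.

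Most Hoxa genes were lower in ATM-KO, while the other clusters went in several directions. Of 29 HOX genes tested, 4 were higher and 12 lower (55.2% called), where 22.1% and 24.3% of all tested genes were called higher and lower (46.4% together), so many genes outside HOX were called too. The median change of the 29 was -0.49, or -0.42 without Hoxd3, which is listed at 0 in one group, against 0.0047 over all genes. The groups' values did not overlap for 15 HOX genes (51.7%), against 35.2% of all genes tested. By cluster, 9 of 11 Hoxa genes were lower and 0 higher, 1 of 9 Hoxb genes was lower and 1 higher, 2 of 4 tested Hoxc genes were higher and 0 lower, and 2 of 5 Hoxd genes were lower and 1 higher. Outside Hoxa, 4 of 18 tested HOX genes were higher and 3 lower (38.9% called, median -0.18), against 46.4% of all genes called. By body position, 7 of 11 tested anterior genes were lower and 0 higher, 3 of 12 middle genes were lower and 2 higher, and 2 of 6 tested posterior genes were lower and 2 higher. Position and cluster are mixed in these counts. Within Hoxa, 4 of 5 anterior, 3 of 3 middle and 2 of 3 posterior genes were lower. Hoxc4, Hoxc5 and Hoxc11 averaged under 10 and were not tested.

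**Figure D1:**
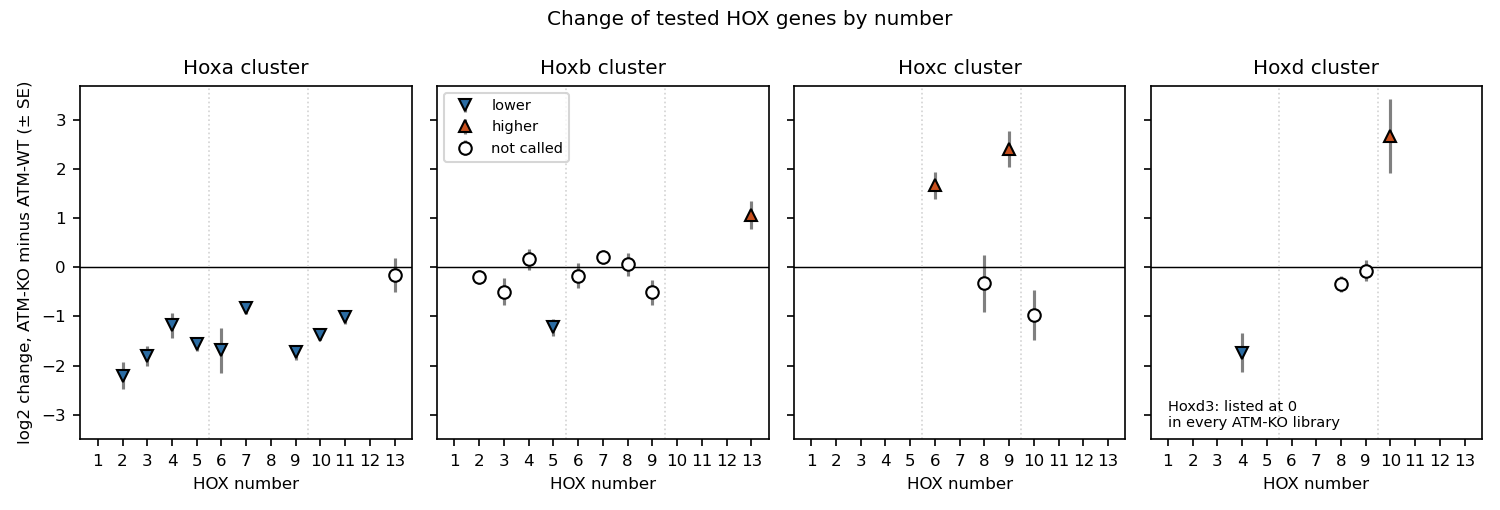
Change of tested HOX genes (vertical axis, log2 ATM-KO minus ATM-WT ± SE, n = 5 per group) by its number, with 1 panel per cluster and dotted lines between anterior, middle and posterior numbers. Filled triangles are called genes: 9 in Hoxa all point down, and Hoxb13, Hoxc6, Hoxc9 and Hoxd10 point up; Hoxd3 has no point because it is listed at 0 in every ATM-KO library.

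The summed level of the 32 HOX genes was 10857 ± 1023 in ATM-WT and 6606 ± 446 in ATM-KO. Hoxa genes made up 55.9% ± 6.39 of that sum in ATM-WT and 37.1% ± 2.55 in ATM-KO (SD, n = 5), and Hoxb genes 35.0% ± 6.19 and 49.2% ± 3.18. Hoxc genes made up 1.25% ± 0.390 and 4.01% ± 0.778, and Hoxd genes 7.90% ± 0.582 and 9.72% ± 0.626. These shares are of normalized counts, which grow with transcript length, and carry no test.

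The anterior genes Hoxa2, Hoxa3, Hoxa4 and Hoxa5 were lower in ATM-KO. Hoxa2, which patterns the hindbrain and second pharyngeal arch in the embryo, held 85.2, 93.4, 84.6, 70.4 and 93.4 normalized counts in ATM-WT libraries A1 to A5 and 22.5, 17.6, 14.5, 15.2 and 19.6 in ATM-KO libraries A11 to A15. Every ATM-KO value lay below every ATM-WT value, a change of -2.21 ± 0.28 (95% interval -2.81 to -1.60, limma adjusted p = 4.45e-05). Hoxa3, needed for the thymus and parathyroid, held 486, 279, 344, 408 and 375 in ATM-WT and 98.7, 103, 101, 89.9 and 145 in ATM-KO. The groups did not overlap (-1.80 ± 0.20, limma adjusted p = 1.47e-05). Hoxa4 held 76.4, 91.0, 68.7, 64.6 and 85.5 against 30.7, 33.3, 33.5, 33.0 and 35.6 (-1.18 ± 0.25, limma adjusted p = 0.0019). Hoxa5, a regulator of lung and skeletal patterning, held 394, 443, 419, 412 and 359 against 148, 157, 129.5, 131 and 118 (-1.56 ± 0.15, limma adjusted p = 4.44e-06). For these genes too the lowest ATM-WT library stood above the highest ATM-KO library.

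All 3 middle Hoxa genes were lower. Hoxa9, a regulator known from blood progenitors and leukaemia, held 1879.7, 1979, 1160.4, 1559.7 and 1440.1 in ATM-WT and 502, 574, 468, 458 and 386 in ATM-KO (-1.73 ± 0.16, limma adjusted p = 3.31e-06). Hoxa7 held 561, 682, 548, 685 and 642 against 307, 345, 335, 383 and 398, the smallest of the called falls in the cluster (-0.82 ± 0.12, limma adjusted p = 1.84e-04). Both were without overlap between groups. Hoxa6 was low throughout, at 31.6, 27.1, 38.9, 42.9 and 54.9 against 10.2, 12.9, 6.84, 27.7 and 6.26. Its ATM-KO library A14 lay just above ATM-WT library A2, so the groups overlapped, while the change of -1.69 ± 0.45 passed (limma adjusted p = 0.0081). After quantile normalization, which shifted the median of all genes to 0.15, the Hoxa4 log2 change was -0.55 (limma adjusted p = 0.105) and the Hoxa6 log2 change -1.04 (limma adjusted p = 0.069), and both calls were lost, leaving 7 Hoxa genes lower.

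Of the 3 posterior Hoxa genes, 2 were lower. Hoxa10, a regulator of the lower trunk and reproductive tract, held 1975, 1940.0, 1499, 1666 and 1699 in ATM-WT and 655, 788, 664, 686 and 596 in ATM-KO (-1.37 ± 0.11, limma adjusted p = 1.39e-06). Hoxa11, which acts in limb, kidney and uterus, held 1041, 809, 1032, 942 and 775 against 405, 594, 486, 427 and 388 (-1.004 ± 0.143, limma adjusted p = 1.09e-04). Neither gene's groups overlapped. Hoxa13, the last gene of the cluster and a factor of the urogenital tract and hindgut, was not called, and its difference from its neighbours was not tested. Its values were 65.9, 98.3, 57.7, 32.3 and 64.9 in ATM-WT and 32.7, 75.8, 69.4, 48.2 and 55.1 in ATM-KO, overlapping over most of their range (-0.15 ± 0.35, 95% interval -0.91 to 0.60, limma adjusted p = 0.74). In all, 8 of 11 Hoxa genes had no overlap and were lower (72.7%), where 18.2% of all genes tested had none in that direction.

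**Figure D2:**
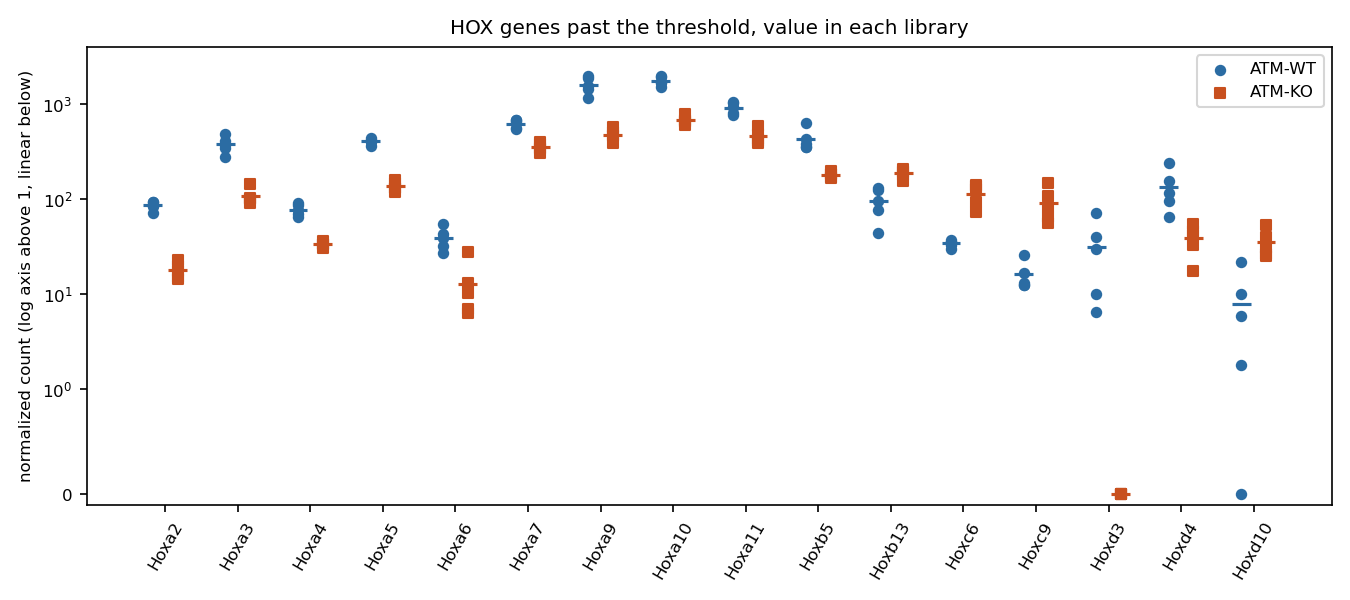
Normalized count (vertical axis, log scale above 1 and linear below) of the 16 called HOX genes in each library, with ATM-WT as circles, ATM-KO as squares and group means as short lines. The groups separate for every gene drawn except Hoxa6, and Hoxd3 sits at 0 in all 5 ATM-KO libraries.

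The falls in Hoxa were shared by several genes around the cluster. Halr1, a long noncoding RNA gene beyond the anterior end, held 474, 451, 674, 442 and 346 in ATM-WT and 56.8, 108, 42.9, 45.9 and 84.7 in ATM-KO (-2.86 ± 0.28, limma adjusted p = 5.82e-06), a larger log2 fall than that of any Hoxa gene. The 3 nearest tested genes at each end include Halr1. Of the other 5, Skap2 (-1.29 ± 0.15, limma adjusted p = 2.33e-05), an adaptor protein gene, Hibadh (-0.86 ± 0.12, limma adjusted p = 6.56e-05), an enzyme of valine breakdown, Tax1bp1 (-0.41 ± 0.08) and Jazf1 (-1.36 ± 0.50) were called lower, while Snx10 was not (0.17 ± 0.19). Of the 20 nearest tested genes, 8 were lower and 3 higher beyond the anterior end (median -0.35), and 13 lower and 2 higher beyond the posterior end (median -0.89). Over the 768 other tested genes of chromosome 6, 40.5% were lower and 9.64% higher, with a median of -0.36. Inside the cluster, the antisense gene Hoxa11os (-0.56 ± 0.18, limma adjusted p = 0.020) and Hoxaas2 (-1.45 ± 0.50, limma adjusted p = 0.032) were lower. The Hoxaas2 call was lost without any 1 of ATM-WT libraries A1, A3 and A5 or ATM-KO libraries A13, A14 and A15, with the Hoxaas2 log2 change between -1.41 and -1.23, and after quantile normalization (-0.84). The Hoxa11os call was lost without ATM-KO library A11, where the Hoxa11os log2 change was -0.48 (limma adjusted p = 0.053), without A2 and A4 (-0.33, limma adjusted p = 0.10) and after quantile normalization (-0.43, limma adjusted p = 0.065). The noncoding gene Hotairm1 was at 63.0 ± 25.4 and 60.5 ± 14.6 (-0.02 ± 0.32) and Hoxaas3 at 32.4 ± 9.74 and 39.8 ± 10.3, neither of them called. Exons of Hoxa11 and Hoxa11os overlap on opposite strands over 35.0% of the exon bases of Hoxa11, and the sources used here do not say whether reads were counted by strand. The part of the wider chromosome 6 difference in the Hoxa result was not tested.

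**Figure D3:**
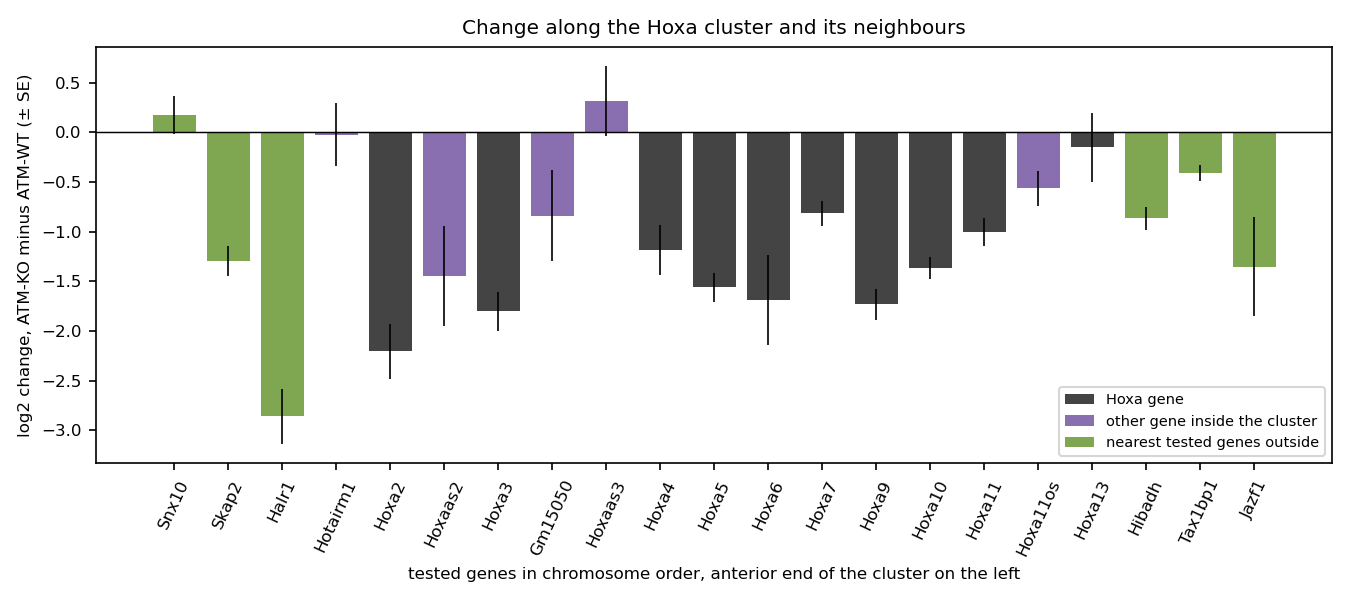
Log2 change (vertical axis, ATM-KO minus ATM-WT ± SE, n = 5 per group) of tested genes in and around the Hoxa cluster in chromosome order, with Hoxa genes in dark grey, other genes inside the cluster in purple and the 3 nearest tested genes outside each end in green. All Hoxa bars from Hoxa2 to Hoxa11 point down, those of Hoxaas3 and Snx10 point up, and the longest reaches -2.86 at Halr1.

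Hoxb genes were mostly at like levels in the 2 groups, with a fall of Hoxb5 and a rise of Hoxb13. Hoxb5, known from lung and enteric nerve development, held 381, 355, 352, 429 and 638 in ATM-WT and 168, 184, 196, 169 and 182 in ATM-KO. The ATM-KO values were close together and all lower (-1.22 ± 0.18, limma adjusted p = 1.33e-04). Hoxb13, the most posterior gene of the cluster, known from prostate and hindgut, held 124, 44.2, 131, 76.2 and 95.4 against 198, 180.2, 192, 155 and 206. Every ATM-KO library stood above every ATM-WT library (1.07 ± 0.29, 95% interval 0.45 to 1.69, limma adjusted p = 0.0084). The remaining 7 Hoxb genes were not called. Hoxb2, a hindbrain gene, held 439, 380.4, 486, 390.0 and 492 in ATM-WT and 357, 345, 415, 333 and 462 in ATM-KO. Hoxb3 held 272, 354, 203, 281 and 614 against 158, 234, 223, 244 and 299. Hoxb4, known from blood stem cells, held 205, 391, 247, 242 and 366 against 273, 377, 377, 252 and 318. All 3 anterior genes overlapped between groups, with changes of -0.20 ± 0.14, -0.49 ± 0.27 and 0.17 ± 0.21. Hoxb6 held 384, 596, 366, 577 and 1050.2 in ATM-WT and 389, 488, 593, 445 and 557 in ATM-KO. Hoxb7 held 394, 441, 456, 481 and 585 against 426, 588, 580.0, 522 and 611. Hoxb8 held 422, 304, 344, 366 and 815 against 363, 452, 449, 442 and 510.3. These middle genes overlapped as well, with changes of -0.17 ± 0.25, 0.21 ± 0.14 and 0.07 ± 0.23. The 95% intervals of these 6 genes reach together from -1.09 to 0.62, so changes within that span are not excluded. No gene of the Hoxb middle range was called, whereas all 3 of the Hoxa middle range were, and this difference between clusters was not tested.

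Hoxb9 was the least settled of the Hoxb genes. Its ATM-WT values were 857, 371, 905, 453 and 1011, and its ATM-KO values 479, 472, 416, 455 and 529. Libraries A2 and A4 lay within or below the ATM-KO range and the other 3 ATM-WT libraries well above it, and the change of -0.51 ± 0.26 was not called (limma adjusted p = 0.12). In A2 and A4 skin markers summed to 13759 and 9771, against 989 to 3385 in the other ATM-WT libraries. Epithelial markers summed to 109141 and 82612, against 43991 to 78940. Of these markers, Krt5 stood at 64561 and 45281 in A2 and A4, against 8182 to 22524 in the other ATM-WT libraries. Krt8 was lowest in A2 and A4, at 6934 and 7201, against 9334 to 17725. Whether cell content has a part in the Hoxb9 values was not tested. Without A2 the Hoxb9 log2 change was -0.72 (limma adjusted p = 0.013), and without A2 and A4 it was -0.97 (limma adjusted p = 6.65e-05). Both settings leave out the lowest ATM-WT values of Hoxb9, which was bound to enlarge the fall, so these p-values give it no support.

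ATM-WT library A5 stood apart in Hoxb. It held the highest ATM-WT value for 7 of 9 Hoxb genes, among them Hoxb3 (614, next 354), Hoxb6 (1050.2, next 596) and Hoxb8 (815, next 422). Its Hoxb sum was 5666 against 3235 to 3490 in the other ATM-WT libraries and 2811 to 3676 in ATM-KO, while its Hoxa sum of 5655 lay within the ATM-WT range of 5339 to 6705. Without this library the Hoxb5 log2 change was -1.07 and still called. Fibroblast markers summed to 236598 in A5, inside the ATM-WT range, and T cell markers to 979, the highest of the ATM-WT libraries (218 to 771 in the others). In ATM-KO the T cell markers summed to 532 to 1648, highest in A11, which held the lowest Hoxb sum (2811). Whether cell content has a part in the Hoxb values of A5 was not tested.

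**Figure D4:**
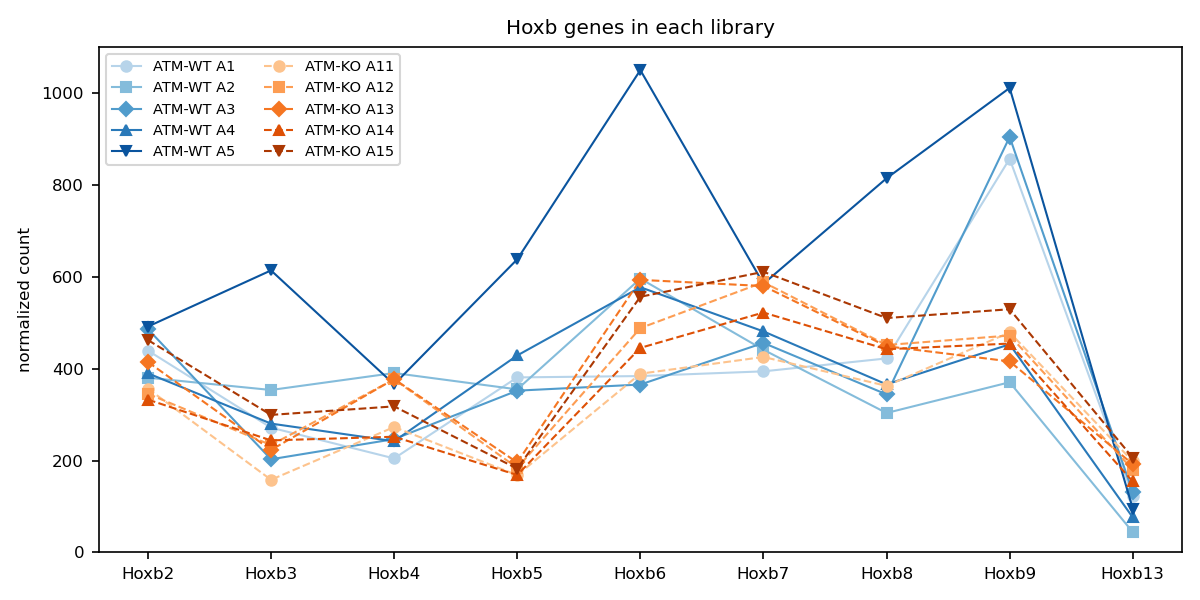
Normalized count (vertical axis) of the 9 Hoxb genes in each of the 10 libraries, with ATM-WT as solid blue and ATM-KO as dashed orange lines. The line of ATM-WT library A5 runs above the others at Hoxb3, Hoxb5, Hoxb6, Hoxb8 and Hoxb9, all 5 ATM-KO libraries lie lowest at Hoxb5, and they lie highest at Hoxb13.

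Beside Hoxb13, the noncoding gene Gm53, which lies between Hoxb9 and Hoxb13, moved the opposite way. It held 304, 195, 384, 206 and 225 in ATM-WT and 6.26, 2.43, 11.0, 8.36 and 0 in ATM-KO (-5.70 ± 0.60, limma adjusted p = 1.09e-05). It was singled out after its values were seen. The antisense gene Hoxb3os, whose exons overlap 52.9% of the exon bases of Hoxb3, was at 230.3 ± 27.7 and 274 ± 55.5 and was not called. Beyond Hoxb13, Atp5g1 (0.68 ± 0.11, limma adjusted p = 3.64e-04) and Ube2z (0.29 ± 0.07, limma adjusted p = 0.0048) were higher, and Snf8 was not called. Of the 20 nearest tested genes beyond that end, 7 were higher and 4 lower (median 0.29). Beyond the anterior end, 1 of 20 was higher and 6 were lower (median -0.16). Of the other 1219 tested genes of chromosome 11, 25.7% were lower and 16.4% higher (median -0.07). The part of the neighbouring rises in that of Hoxb13 was not tested.

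The 2 Hoxc genes that were called rose. Hoxc6, a marker of thoracic level, held 37.1, 32.6, 34.9, 29.8 and 35.6 in ATM-WT and 91.7, 127, 137, 139 and 73.4 in ATM-KO (1.67 ± 0.27, limma adjusted p = 2.57e-04). Hoxc9, which marks the lower thorax, held 16.7, 12.3, 12.9, 12.4 and 25.6 against 82.8, 148, 64.8, 106 and 56.0 (2.41 ± 0.36, limma adjusted p = 1.68e-04). Both genes had no overlap, and their ATM-KO means were 3.34 and 5.73 times the ATM-WT means. Hoxc8, which lies between them, was not called, at 34.2, 4.58, 54.1, 29.4 and 24.8 against 10.7, 29.7, 18.5, 20.9 and 17.2 (-0.32 ± 0.58). Hoxc10 was at 31.9 ± 16.0 and 14.9 ± 6.52 (-0.97 ± 0.51, limma adjusted p = 0.14). The untested Hoxc4 (12.9 ± 4.92 and 7.02 ± 2.38), Hoxc5 (4.72 ± 5.62 and 11.7 ± 11.3) and Hoxc11 (5.65 ± 5.09 and 6.01 ± 3.91) were low in both groups. Of the 630 other tested genes of chromosome 15, 39.7% were higher and 18.9% lower (median 0.34), and the part of this in the Hoxc rises was not tested.

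Hoxd genes moved in opposite directions at the ends of the measured stretch. Hoxd3 held 9.95, 29.5, 70.6, 39.8 and 6.50 in the ATM-WT libraries. Each ATM-KO library listed it at 0 (limma adjusted p = 2.03e-04), so no fold is given. Hoxd4 held 116, 241, 95.2, 64.4 and 154 against 45.7, 54.3, 17.2, 32.7 and 41.5 (-1.73 ± 0.40, limma adjusted p = 0.0034). The split between them is uncertain, because in GENCODE M21 up to 53.1% of the exon bases of Hoxd3 and 39.1% of those of Hoxd4 are shared with another same-strand gene, among them each other and Gm28230. Gm28230 itself was at 62.4 ± 57.5 and 9.68 ± 5.71 and was not called. Whether the values are plain scaled read counts is not known. If they are, the sum of Hoxd3, Hoxd4 and Gm28230 does not depend on how reads are split among them. It was 206, 364, 166, 110.02 and 293 in ATM-WT and 48.7, 62.6, 35.5, 44.3 and 48.6 in ATM-KO, again without overlap. The antisense gene Hoxd3os1 was lower too (-1.19 ± 0.35, limma adjusted p = 0.014), but after quantile normalization the Hoxd3os1 log2 change was -0.55 and not called (limma adjusted p = 0.22). Without ATM-WT library A3, the mean of Hoxd3 was under 10 and it was not tested.

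At the other end, Hoxd10, a limb and lower trunk gene, held 1.76, 0, 9.95, 5.80 and 21.6 in ATM-WT and 26.6, 25.0, 53.3, 30.4 and 40.02 in ATM-KO (2.68 ± 0.75, 95% interval 1.06 to 4.30, limma adjusted p = 0.011). The ATM-WT values rest on few reads, and the highest of them, in A5, came close to the lowest ATM-KO value. Hoxd8 held 481, 373, 481, 443 and 625 in ATM-WT and 362, 304, 448, 409.8 and 365 in ATM-KO (-0.34 ± 0.16, limma adjusted p = 0.10). Hoxd9 held 154, 233, 144, 288 and 197 against 158, 236, 185, 173 and 196 (-0.06 ± 0.22). Both genes overlapped between groups and neither was called. Without A2 the Hoxd8 log2 change was -0.42 and was called (limma adjusted p = 0.037). A2 held the lowest ATM-WT value of Hoxd8, so leaving it out was bound to enlarge the fall. Beyond Hoxd10, Lnpk (0.92 ± 0.14, limma adjusted p = 2.00e-04) and Atp5g3 (0.44 ± 0.13, limma adjusted p = 0.012) were higher, and Atf2 was not called. Of the 20 nearest tested genes beyond that end, 4 were higher and 6 lower (median -0.17). Beyond the anterior end, 6 of 20 were higher and 4 lower (median 0.06). Among the other 1196 tested genes of chromosome 2, 27.9% were lower and 16.8% higher. The part of the neighbouring changes in the Hoxd10 rise was not tested.

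Compared per kb of the longest annotated transcript, the highest HOX gene was Hoxa10 in ATM-WT and Hoxb7 in ATM-KO. In ATM-WT the order ran from Hoxa10 (685 ± 77.8 per kb) through Hoxa9 (497 ± 103), Hoxa11 (402 ± 53.9), Hoxb7 (365 ± 54.9), Hoxa7 (307 ± 32.3), Hoxb6 (303 ± 141) to Hoxb9 (279 ± 112), where Hoxa10 and Hoxa9 differ by more than either SD. Each of the lower neighbours in that order differs by less than the larger of its SDs, except Hoxb7 and Hoxa7, which differ by slightly more. The order in ATM-KO ran from Hoxb7 (422 ± 57.8 per kb) through Hoxa10 (264 ± 27.2), Hoxb6 (252 ± 42.0), Hoxa11 (201 ± 36.5) and Hoxb9 (183 ± 15.99) to Hoxa7 (174 ± 18.1). Hoxb7 led by more than the SDs, while its own level was not called different between groups (0.21 ± 0.14, 95% interval -0.10 to 0.52, limma adjusted p = 0.25). Using the union of exons as length, Hoxa10 and Hoxb7 kept the top place in their groups, and Hoxa9 moved from rank 2 to rank 5 in ATM-WT.

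**Figure D5:**
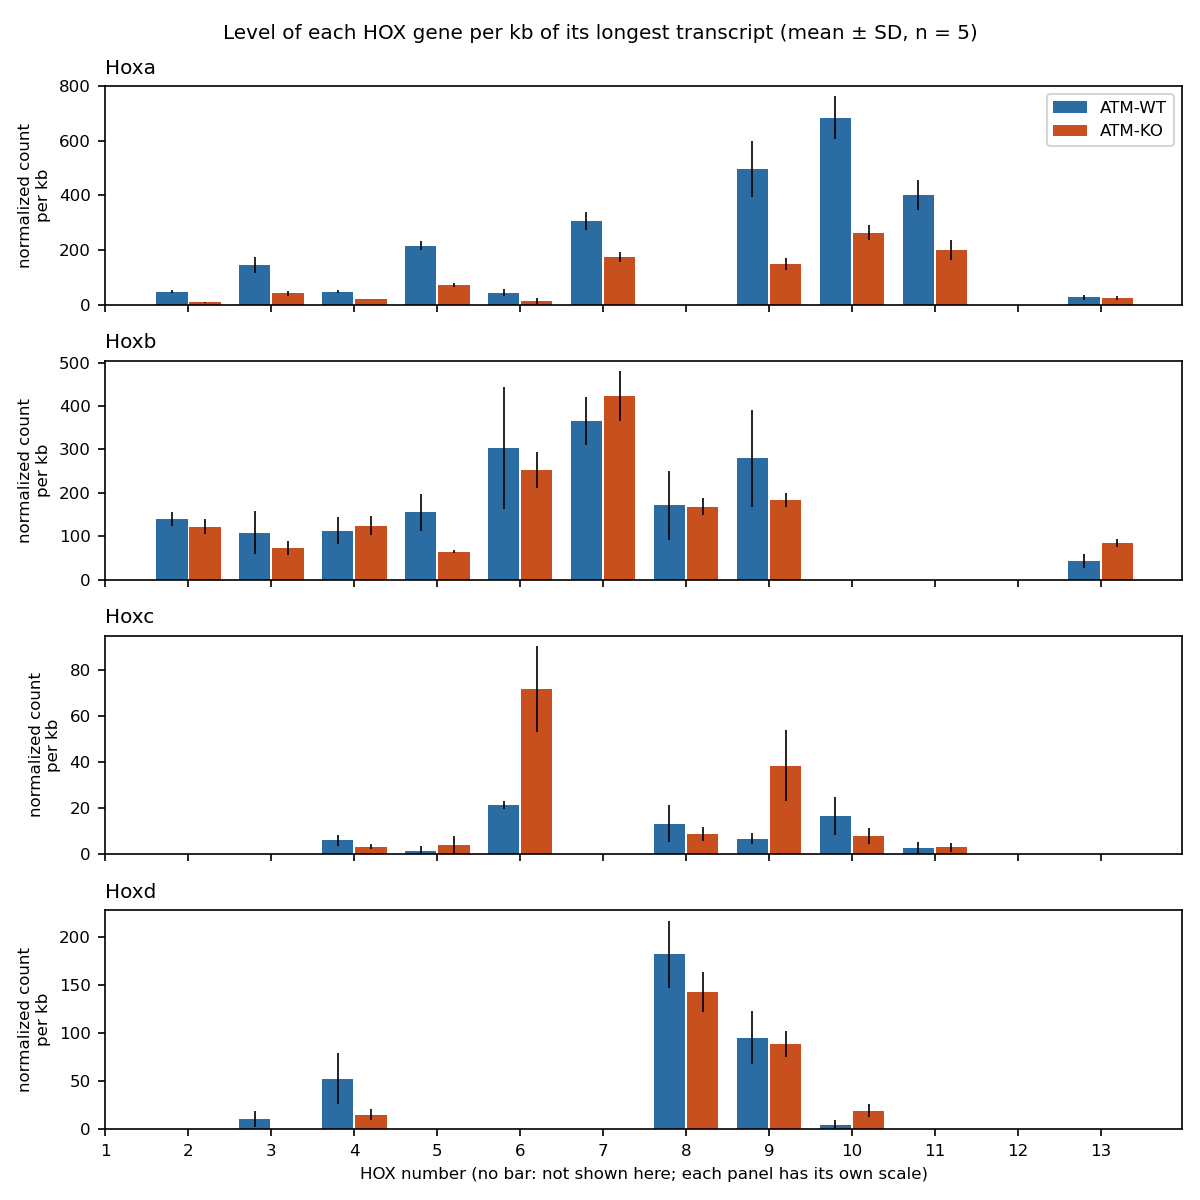
Mean normalized count per kb of the longest transcript (vertical axis, error bars SD, n = 5) of HOX genes by number, with ATM-WT in blue and ATM-KO in orange, 1 panel per cluster and a scale of its own in each. Hoxa10 is the tallest Hoxa bar in both groups, Hoxb7 is the tallest ATM-KO bar of all, and Hoxc bars stay below 80 per kb.

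Within sets of paralogues, the Hoxa copy took a smaller share in ATM-KO in several cases. Per kb of longest transcript, Hoxa9 made up 56.5% ± 10.1 of the number 9 total in ATM-WT (45.9% to 70.4%) and 32.3% ± 3.07 in ATM-KO (27.1% to 34.5%), while Hoxc9 went from 0.759% ± 0.220 to 8.26% ± 2.59 and Hoxd9 from 11.0% ± 3.80 to 19.4% ± 1.95. In the number 2 set, Hoxa2 made up 25.7% ± 2.66 and 7.69% ± 1.57, with Hoxb2 making up the rest. In the number 6 set, Hoxc6 stood at 6.51% ± 2.38 and 21.2% ± 4.41. Numbers 10 and 11 were mostly Hoxa in both groups, with Hoxa10 at 96.95% ± 1.38 and 90.6% ± 2.80 and Hoxa11 at 99.3% ± 0.545 and 98.5% ± 0.937. In number 5, where Hoxa5 and Hoxb5 were both lower, Hoxa5 made up 58.5% ± 7.80 and 51.4% ± 3.00. These shares are descriptions without a test.

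As a profile over all 32 genes, HOX levels were alike within a genotype and less so between. Pearson correlations of log2 values across these genes were 0.91 to 0.96 between ATM-WT libraries, 0.94 to 0.98 between ATM-KO libraries and 0.72 to 0.90 across genotypes. Over all 16517 tested genes the ranges were 0.88 to 0.95, 0.97 to 0.98 and 0.76 to 0.86. Genes are not independent replicates, and the libraries of a pair share each gene's length.

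Genes that act with or on HOX genes were described by list, and each count is to be read against the 22.1% of all tested genes called higher and 24.3% called lower. TALE homeodomain proteins bind DNA together with HOX proteins, and 5 of their 9 genes were lower and 0 higher (median -0.72). Meis1 was at 1188 ± 886 and 128 ± 26.3 (-2.82 ± 0.49, limma adjusted p = 4.80e-04), Meis2 at 1028 ± 437 and 253 ± 24.4 (-1.93 ± 0.24) and Pbx2 at 1107 ± 71.1 and 674 ± 52.8 (-0.72 ± 0.10). Retinoic acid switches on HOX genes in the embryo, and of its pathway genes 10 of 16 tested were lower and 0 higher (median -0.86). The binding protein gene Crabp2 (2256 ± 1357 and 10.8 ± 5.18), the synthesis enzyme genes Aldh1a1 (424 ± 187 and 6.36 ± 3.01) and Aldh1a3 (618 ± 330 and 20.3 ± 14.6) and the receptor gene Rxra (1783 ± 467 and 612 ± 81.7) all fell. The falls were not limited to these roles. Of the breakdown enzyme genes, Cyp26a1 (202 ± 141 and 7.68 ± 3.71) was lower too, and Cyp26b1 (224 ± 94.2 and 170 ± 18.6) was not called. The part of the lower epithelial, fibroblast and skin marker levels in these changes was not tested.

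Chromatin regulators that hold HOX genes on or off held called genes in both directions, in a table where 22.1% of all tested genes were called higher and 24.3% lower (46.4% together). Of 12 genes of MLL and trithorax activators, which keep HOX genes on, 5 were higher and 2 lower (median 0.35), with Psip1 (1959 ± 244 and 3435 ± 263), Hcfc1 (2884 ± 289 and 4562 ± 333) and Men1 (1012 ± 245 and 1891 ± 212) higher and Mllt3 (892 ± 154 and 398 ± 44.8) lower. Of 23 Polycomb genes, which keep HOX genes off, 3 were higher and 8 lower (median -9.50e-05), a share called near that of all genes. Rbbp7 (3976 ± 181 and 7413 ± 255) rose, and Ezh1 (819.99 ± 92.8 and 449 ± 40.3), Bmi1 (1857 ± 146 and 1313 ± 85.9) and Phc1 (696 ± 139 and 388 ± 45.6) fell. Of the CDX and ParaHox factors, relatives of HOX genes that act in the posterior gut, Cdx1 and Cdx2 were in the table, and neither averaged 10. Of 19 tested patterning factors outside HOX, 4 were higher and 7 lower (median -0.49), the share called higher being near that of all genes. Pitx1, a hindlimb factor, fell from 3882 ± 2805 to 49.3 ± 13.8 (-5.94 ± 0.47), Pax3, a neural crest and muscle factor, from 492 ± 155 to 6.53 ± 2.18 (-6.02 ± 0.32) and Tbx18, a factor of ureter mesenchyme, from 317 ± 81.1 to 35.3 ± 5.61 (-3.10 ± 0.25). Pax2, a kidney and urogenital factor, rose from 22.1 ± 8.07 to 248 ± 59.2 (3.47 ± 0.30).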

How the data were processed

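RNA from 5 ATM-WT and 5 ATM-KO tumours was sequenced, with extraction and libraries by a sequencing company, per the labels' protocols. The authors deposited 1 table of normalized counts, with values at or above 0, here treated as signal. STAR, Salmon and DESeq2 are named in the submitters' processing notes; the sources used here give no versions, roles, genome build or annotation. Columns carry a genotype and a library number that is in no label, so they were assigned to groups only. Only 58.0% to 69.1% of low values lay within 0.05 of whole multiples of the estimated worth of 1 read, so whole reads were not recovered and no count model was run.

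Genes with a mean of at least 10 (16517) were compared after adding 1 and taking log2, using lmFit and trended eBayes of limma 3.58.1 (R 4.3.3), adjusted by Benjamini-Hochberg over all of them, threshold 0.05. HOX genes and lists were chosen with earlier results of these data known. Members past the threshold, or with a mean of at least 50 in either group, are given in every library, and the others by mean ± SD. From each list up to 4 tested genes with the smallest p could be named, besides markers that define the tissue. Genes in or beside a cluster outside that rule were named for their place, and Cyp26a1 and Cyp26b1 as retinoic acid breakdown enzymes. Aldh1a2 and Crabp1 were named as genes of the same roles as Aldh1a1, Aldh1a3 and Crabp2. Gene order, transcript lengths and overlaps are from GENCODE M21, whose build may differ from the authors', and promoters from RefSeq. The limma script was tested on simulated data, where it called 58% of 2-fold and 76% of 4-fold changes. A gene that was not called may thus still have changed. Some genes are not reported here by name. Tables were handled in Python 3.11.15. Alternatives covered the pseudocount, filter, scaling, eBayes settings, sample weights and leaving out libraries.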

Additional observations from a re-analysis of the deposited data

Results flagged for a closer look

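In 4 cases among 63 sets of 5 libraries (32 HOX genes in 2 groups, less 1 set that is all 0), the highest library was separated from the rest by more than Dixon's 95% limit for 5 values; chance alone sets apart about 1 in 20 such sets. Hoxb5 was 638 in ATM-WT library A5, against 352 to 429 in the other 4. Hoxb8 was 815 in the same library, against 304 to 422. Hoxa3 was 145 in ATM-KO library A15, against 89.9 to 103, and remained below every ATM-WT value. Hoxc5 was 31.5 in ATM-KO library A11, against 4.13 to 9.58.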

How the results depend on the processing

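Over 20 alternatives, 3 to 5 HOX genes were called higher and 10 to 15 were called lower; the median change ranged from -0.72 to -0.24. Of 316 values of the 16 called members, 314 kept direction and call and 0 reversed; Hoxa4 and Hoxa6 lost their calls after quantile normalization. Uncalled members changed sign near 0: Hoxa13 log2 change (0.46 after quantile normalization; -0.37 to 0.023 leaving out 1 library), Hoxd9 log2 change (0.28 after quantile normalization, 0.20 without A2 and A4; -0.17 to 0.074), Hoxb8 log2 change (-0.21 with array weights, -0.16 without A2 and A4; -0.050 to 0.30) and Hoxb6 log2 change (-0.32 to 0.061). Hoxb9 log2 change and Hoxd8 log2 change were called with array weights (-0.72 and -0.44), without A2, and without A2 and A4. A2 and A4 held the lowest ATM-WT values of both genes, so leaving them out was bound to enlarge the falls. The causes were not tested. No paired analysis was possible because the columns carry library numbers that are not the replicate numbers of the labels. Of the genes beside the Hoxa cluster, Jazf1, Tax1bp1 and Snx10 were not recomputed under the alternatives. Depth limits Hoxd10, Hoxd3 and the untested Hoxc genes.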
